A study of Mus musculus with 16 samples.

Results

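The RIN family (Rinl, Rin1, Rin2 and Rin3) and the Rab5 genes (Rab5a, Rab5b and Rab5c) were followed across 16 mouse ventricle libraries. They were found by gene symbol in a table of read counts, and make up 7 of its 33399 genes. All 7 passed the filter on low counts. Rinl was chosen because its counts were lower in mice with chronic kidney disease (CKD), so its values in that comparison are a description, and nothing is read from its passing a threshold there. The other 6 genes belong to the same pathway and were taken by name.

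The mice were wild-type C57BL/6 animals of both sexes. In the CKD groups (4 males and 4 females) adult mice, 8 weeks old at the start, received chow containing 0.25% adenine by turns with plain chow over 6 weeks; adenine forms crystals that injure the kidney tubules. The 4 male and 4 female control mice ate plain chow for the same 6 weeks. RNA came from whole ventricle tissue, which holds cardiomyocytes, vessels, fibroblasts and blood cells together, so fewer cells of a type and less RNA per cell cannot be told apart.

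Rab5 proteins are small GTPases on early endosomes, the compartments that receive receptors and other cargo taken in from the cell surface. In the GTP-bound state they recruit tethering proteins and a lipid kinase complex, and so allow endosomes to fuse and mature. RIN proteins carry a VPS9 domain that loads Rab5 with GTP, and the larger members also bind active Ras. They thereby connect signalling receptors with the uptake of those receptors. Rinl, the RIN-like member, has been reported to act on Rab5 and on the related Rab22.

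On GRCm38 Rinl (ENSMUSG00000051735.7) lies on the plus strand of chromosome 7 from 28788969 to 28798963, with 12 merged exons of 3624 bases. Rin1 (ENSMUSG00000024883.7) spans chromosome 19 from 5050481 to 5057071, Rin2 (ENSMUSG00000001768.16) chromosome 2 from 145675215 to 145887616, and Rin3 (ENSMUSG00000044456.16) chromosome 12 from 102283048 to 102390855, all on the plus strand. Rab5a (ENSMUSG00000017831.7) is on the plus strand of chromosome 17 from 53479234 to 53507680. Rab5b (ENSMUSG00000000711.3) and Rab5c (ENSMUSG00000019173.11) are on the minus strand, on chromosome 10 from 128677175 to 128696264 and on chromosome 11 from 100715009 to 100738215. All 7 are annotated as protein coding, and a count covers all exons of a gene.

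The 250 bases before the start of Rinl and of Rab5a are printed because they hold the fewest CpG dinucleotides of the 7 genes and the joint highest count. Sequences are those of RefSeq on GRCm38.p6, 5′ to 3′ on the strand of the gene, with each CpG in capitals. All 7 genes had an entry. The Rinl window is chr7:28788719-28788968 and the Rab5a window chr17:53478984-53479233.
Rinl: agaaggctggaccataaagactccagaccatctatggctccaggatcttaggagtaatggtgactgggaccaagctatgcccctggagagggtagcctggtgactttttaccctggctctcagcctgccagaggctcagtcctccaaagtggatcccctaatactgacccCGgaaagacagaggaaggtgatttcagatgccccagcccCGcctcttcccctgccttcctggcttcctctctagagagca
Rab5a: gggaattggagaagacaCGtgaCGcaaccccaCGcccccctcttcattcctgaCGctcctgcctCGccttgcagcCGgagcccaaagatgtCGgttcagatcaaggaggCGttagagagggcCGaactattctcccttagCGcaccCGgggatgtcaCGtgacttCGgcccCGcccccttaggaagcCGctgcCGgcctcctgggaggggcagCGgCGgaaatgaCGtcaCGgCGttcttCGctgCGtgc

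The Rinl window held 2 CpG dinucleotides and the Rab5a window 23. Over 32851 windows of the same length the median was 6, and the middle 50% of windows ran from 2 to 16. Rin2 had 3, Rin1 6, Rab5b 14 and Rab5c 18, and the 2 RefSeq starts of Rin3 had 23 and 12. The 3 Rab5 genes thus lay above the median of all windows, and Rinl, Rin1 and Rin2 at or below it. The RefSeq starts of Rin1, Rin2 and Rin3 lie inside the GENCODE spans given above.

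Both strands were searched for 5 short motifs. The ETS core CCGGAA occurred 1 time in the Rinl window and in 0 windows of the other members; 12.03% of all windows held it. The GC box GGGCGG was in both Rin3 windows and in those of the 3 Rab5 genes, against 32.7% of all windows. CCAAT occurred 4 times before Rab5b and 1 time each before Rab5a, Rab5c and Rin2, and was found in 33.9% of all windows. The E-box CACGTG, which reads the same on both strands, was matched in the Rab5a window, as in 6.02% of all windows, and TATAAA in no member against 12.4%.

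The libraries held between 10203707 and 13626039 counts. As a check of the tissue, 7 cardiomyocyte genes summed to 25920 to 41950 CPM (read counts scaled to a common library size), and atrial genes were present too, at 148.5 to 866 CPM in sum. Library male CKD 4 stood apart in its stromal genes: 6 fibroblast markers summed to 167 CPM there, the lowest of the CKD libraries, against 786 to 1041 CPM in the 8 controls. Libraries also differed in how strongly a gene's level moved with the GC content of its transcripts, with a correlation across genes from -0.50 to 0.41 in CKD and from -0.47 to 0.56 in control libraries. The number that follows C in a sample title was 6 for 5 control and 5 CKD libraries and took 3 other values in the remaining 6; no source used here explains it.

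The levels of the 7 genes spanned a wide range. Per kilobase of exon, Rab5b was highest (22.8 to 45.3 CPM per kb over 16 libraries), followed by Rab5c (16.1 to 27.4) and Rab5a (8.77 to 14.7). Rin2, the most abundant RIN gene, had 2.30 to 4.13 CPM per kb. Rin3 had 0.295 to 3.19, Rinl 0.235 to 1.24 and Rin1 0.127 to 0.593 CPM per kb. These are levels, scaled to exon length so that genes can be compared.

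The order held in most libraries. Rab5b exceeded Rab5c in 15 of 16 libraries, with a median ratio of 1.62, and Rab5c exceeded Rab5a in 16 of 16. Rab5a exceeded Rin2 in 16 of 16 and their ranges did not overlap. Rin2 exceeded Rin3 in 15 of 16, Rin3 exceeded Rinl in 14 of 16, and Rinl exceeded Rin1 in 12 of 16. The ranges of these last 3 pairs overlapped, and so did those of Rab5b and Rab5c. The order within these pairs is thus not separated by the spread between mice. Added up per kilobase, the RIN genes reached 5.79 ± 1.11 CPM per kb (SD, n = 16) and the Rab5 genes 69.7 ± 7.99 CPM per kb (SD, n = 16).

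**Figure D1:**
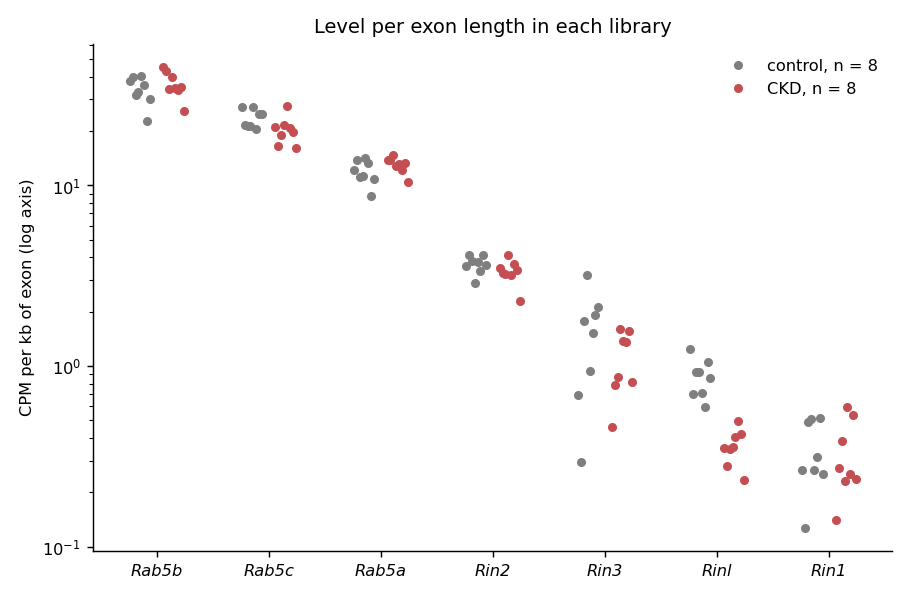
Level of each gene in CPM per kilobase of exon on a log axis, 1 point per library, grey for 8 control and red for 8 CKD libraries. The Rab5 genes lie between 8.77 and 45.3 CPM per kb and the RIN genes between 0.127 and 4.13; the control and CKD points of Rinl, chosen for that difference, separate.

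Rinl was lower in CKD ventricles of both sexes. In male controls 1 to 4 it had 2.57, 2.16, 3.82 and 3.11 CPM. In male CKD mice 1 to 4 it had 1.47, 1.79, 1.52 and 0.853 CPM. Each male CKD library thus lay under each male control library, a pattern seen for 1.56% of the genes tested.

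In female controls 1 to 4 Rinl had 4.503, 2.54, 3.36 and 3.35 CPM, and in female CKD mice 1 to 4 it had 1.27, 1.01, 1.26 and 1.29 CPM. The female CKD values were tightly grouped and again lay under all female controls, a pattern seen for 2.49% of the genes tested. Over both sexes 8 of 8 CKD libraries lay below every control library. This was so for 0.0427% of the 16400 genes tested. Rinl was chosen on this comparison, so nothing is read from these shares.

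The mean of Rinl was 3.18 ± 0.761 CPM (SD, n = 8) in controls and 1.31 ± 0.294 CPM (SD, n = 8) in CKD mice. The log2 fold change was -1.26 (SE 0.18, 95% interval -1.64 to -0.87), a level 2.39-fold lower. Of all genes tested, 22 had a log2 fold change at least as low, Rinl included. In males the log2 fold change was -1.03 (SE 0.25) and in females -1.50 (SE 0.26). The groups came close at their edges, where the lowest control library was 1.21 times the highest CKD library.

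Rinl rested on few reads, 29 to 53 counts in control libraries and 9 to 22 in CKD libraries. At these depths counting error alone gives a coefficient of variation of 16.3% in controls and 25.4% in CKD mice, and the measured ones were 23.9% and 22.5%. The spread among CKD mice was therefore no larger than that of counting. By title number, the 5 CKD libraries numbered 6 had 1.01 to 1.52 CPM and the 5 controls 2.16 to 4.503 CPM. For number 3 the single CKD library had 0.853 CPM and the single control 3.82, and for number 2 the CKD library had 1.29 and the 2 controls 3.11 and 3.35. Number 5 held 1 CKD library and no control, so it gives no difference.

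**Figure D2:**
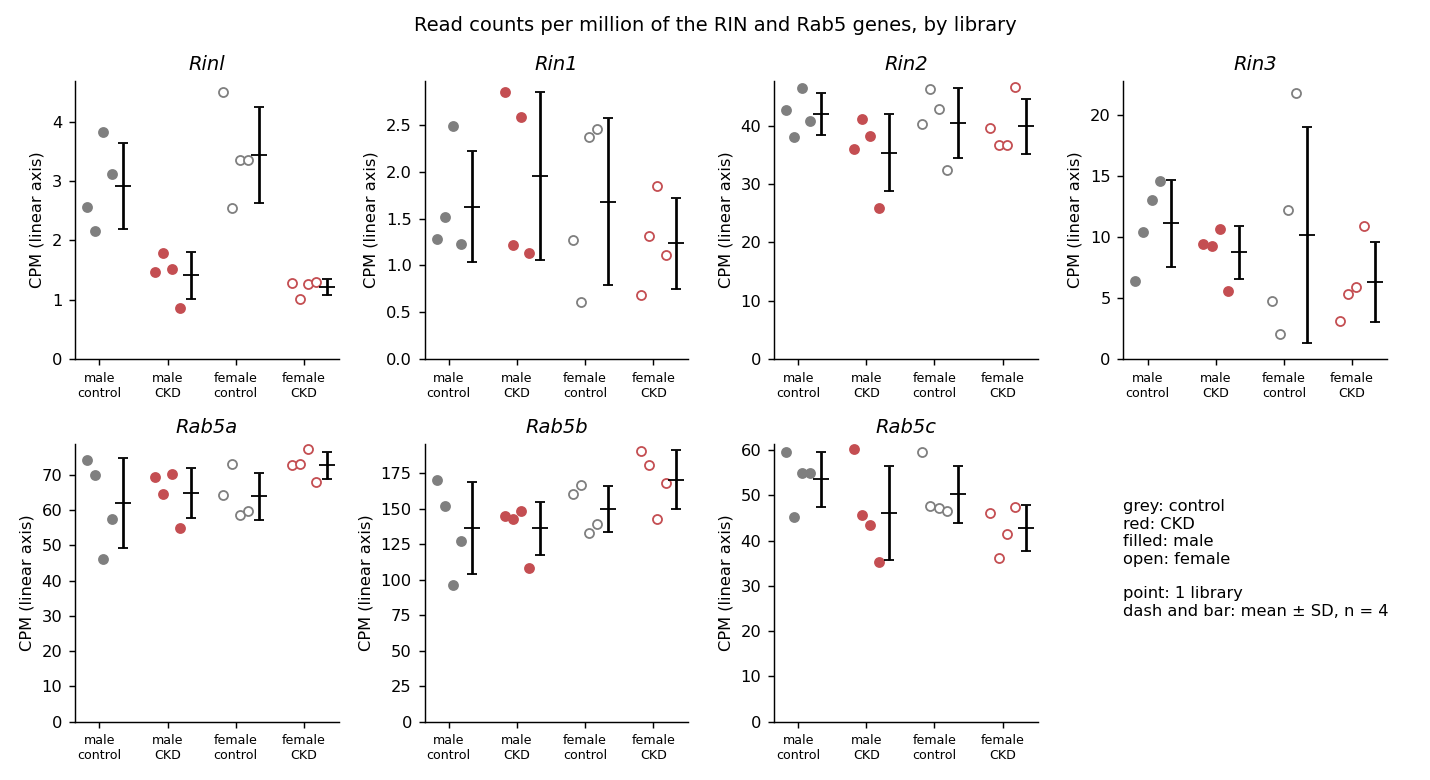
CPM of each gene in each library (points, 4 per group; dash and bar, mean ± SD; linear axes from 0), controls grey and CKD red, males filled and females open. All 8 CKD points of Rinl, chosen for this difference, lie between 0.853 and 1.79 CPM, under the control points at 2.16 to 4.503. Such a separation was seen for 0.0427% of genes tested, and the groups of the other 6 genes overlap.

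Rin1, whose product binds Ras and the ABL tyrosine kinases, had control and CKD values that overlapped. It had 1.28, 1.51, 2.49 and 1.23 CPM in male controls 1 to 4 and 2.86, 1.22, 2.59 and 1.14 CPM in male CKD mice. Female controls had 1.27, 0.613, 2.38 and 2.46 CPM, and female CKD mice 0.679, 1.31, 1.85 and 1.11 CPM. The highest and the lowest library were a male CKD mouse and a female control. Its log2 fold change with CKD was -0.05 (SE 0.31), with a 95% interval from -0.70 to 0.59. Rin1 had 7 to 39 counts per library.

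Rin2 is the RIN gene with the highest level in these ventricles, and loss of its human counterpart causes a connective tissue disorder. Male controls 1 to 4 had 42.7, 38.0, 46.5 and 40.7 CPM and male CKD mice 36.1, 41.2, 38.2 and 26.0 CPM. Female controls had 40.4, 46.3, 42.9 and 32.3 CPM and female CKD mice 39.6, 36.8, 36.6 and 46.6 CPM. The lowest value was that of male CKD 4, and the other libraries overlapped between groups. The log2 fold change was -0.13 (SE 0.11, 95% interval -0.36 to 0.09).

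Rin3, which also activates the Rab5 relative Rab31, was the most variable of the 7. It ranged over 10.8-fold between libraries, from 2.02 CPM in female control 2 to 21.8 CPM in female control 4. Male controls 1 to 4 had 6.42, 10.4, 13.1 and 14.6 CPM, male CKD mice 9.45, 9.30, 10.6 and 5.59 CPM. The other 2 female controls had 4.76 and 12.2 CPM and female CKD mice 1 to 4 had 3.14, 5.35, 5.93 and 10.9 CPM. Every CKD value lay inside the range of the controls, and the log2 fold change of -0.51 (SE 0.36) had a 95% interval from -1.26 to 0.25. Without female control 4 it was -0.22, and without female control 2 it was -0.65.

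The level of Rin3 moved with the GC trend of the library. With the 4 group means removed, Pearson's r was 0.72 and Spearman's rho 0.64 over 16 libraries, and r was 0.69 without the 2 libraries farthest from the median trend. The same r was 0.51 for Rin1, 0.33 for Rinl and 0.27 for Rab5c, -0.02 for Rin2, and -0.69 for Rab5a and -0.53 for Rab5b. The GC content of the transcripts was 58.6% for Rin1, 56.4% for Rin3 and 55.2% for Rinl, against 44.8% for Rab5a and 49.1% for Rab5b. Rab5c had 55.0%, and Rin2 had 48.65%, less than Rab5b, with an r nearer to 0. These correlations describe the same 16 libraries and carry no test. With the GC trend of each library taken out, the log2 fold change of Rinl was -1.14 (SE 0.17) and that of Rin3 -0.34.

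Among the Rab5 genes, Rab5a had 74.4, 70.0, 46.2 and 57.5 CPM in male controls 1 to 4 and 69.3, 64.6, 70.3 and 54.9 CPM in male CKD mice. Female controls had 64.2, 73.2, 58.5 and 59.7 CPM and female CKD mice 72.8, 73.0, 77.3 and 67.9 CPM. Control and CKD values overlapped in both sexes. The log2 fold change was 0.12 (SE 0.10, 95% interval -0.08 to 0.33).

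Rab5b, the Rab5 gene with the highest level, had 170 CPM in male control 1 and 151.6, 95.9 and 127 CPM in the other 3. Male CKD mice 1 to 4 had 145.0, 142.6, 148 and 108 CPM. Female controls had 160.2, 167, 133 and 139 CPM, and female CKD mice 190.2, 181, 143 and 168 CPM. In females 3 of 4 CKD libraries lay above all female controls, and in males 0 of 4 lay above all male controls. The log2 fold change over both sexes was 0.09 (SE 0.11, 95% interval -0.15 to 0.33).

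Rab5c had 59.5, 45.1, 54.8 and 54.9 CPM in male controls 1 to 4 and 60.2, 45.6, 43.5 and 35.3 CPM in male CKD mice. Female controls had 59.6, 47.6, 47.1 and 46.6 CPM and female CKD mice 46.0, 36.2, 41.5 and 47.5 CPM. Of the CKD libraries, 4 of 8 lay below all controls and 1 of 8 above them. The log2 fold change of -0.22 (SE 0.11) had a 95% interval from -0.45 to 0.0014. With the GC trend taken out it was -0.12.

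By edgeR's quasi-likelihood test with sex as a covariate, 1 of the 7 genes passed a Benjamini-Hochberg adjusted p under 0.05 for CKD against control. That gene was Rinl, and of all genes tested 0.0854% passed (14 of 16400). Since Rinl was proposed from this contrast, nothing is read from the count. The median log2 fold change of the 7 was -0.13, and that of all genes 0.0017. An unadjusted p under 0.05 was reached by 15.4% of all genes in edgeR. Of the other 6 genes 0 did in edgeR or in DESeq2, where 15.9% of all genes did. Rab5c did in limma-voom with sample quality weights, where 19.3% of all genes did, so 1 of 6 is near the share of all genes. Apart from that of Rab5c, with an upper limit of 0.0014, their intervals leave room for differences in either direction. For Rin1 and Rin3 they leave room for changes as large as -0.70 and -1.26.

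**Figure D3:**
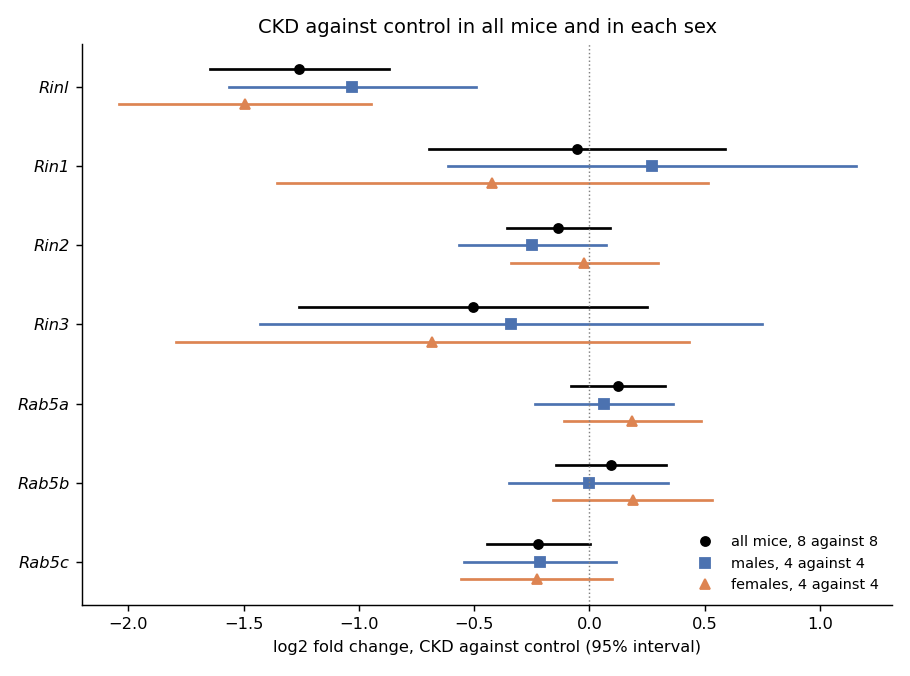
Log2 fold change of CKD against control for each gene, with 95% intervals from the fitted model, in all mice (black circles), males (blue squares) and females (orange triangles). The 3 intervals of Rinl, chosen for this difference, lie below 0, from -1.64 to -0.87 for all mice. Those of the other 6 genes include 0.

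The make-up of each family was described by shares, which follow from the levels above. Per kilobase, Rinl made up 13.7% ± 3.33 (SD, n = 8) of the RIN total in controls, with a range from 10.3% to 21.5%. In CKD mice it made up 7.03% ± 0.947 (SD, n = 8), from 5.65% to 8.59%, so the ranges did not overlap. Since Rinl was chosen for its lower level in CKD mice, nothing is read from this separation. Rin2 had the largest share, 58.1% ± 11.7 in controls and 65.5% ± 7.002 in CKD mice (SD, n = 8 each). The RIN total was 6.44 ± 0.910 CPM per kb in controls and 5.13 ± 0.910 CPM per kb in CKD mice (SD, n = 8 each), with overlapping ranges. Of the Rab5 total, Rab5b made up 48.6% ± 3.92 in controls and 52.1% ± 4.06 in CKD mice, and Rab5c 34.3% ± 4.93 and 29.1% ± 4.05 (SD, n = 8 each). The Rab5 total was 69.6 ± 8.19 and 69.8 ± 8.35 CPM per kb.

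Sex was not used to choose the genes. Between females and males 0 of 7 differed by edgeR's quasi-likelihood test with treatment as a covariate, while 0.171% of genes tested did. An unadjusted p under 0.05 was reached by 0 of 7 and by 25.2% of all genes in edgeR. DESeq2 and limma-voom also called 0 of 7, where they called 9.77% and 16.6% of all genes. Rab5b had the largest difference relative to its error: 136 ± 24.3 CPM in males and 160.0 ± 20.4 CPM in females (SD, n = 8 each), a log2 difference of 0.23 (SE 0.11, adjusted p = 0.215). Rinl had 2.16 ± 0.969 and 2.32 ± 1.31 CPM (SD, n = 8 each), and its log2 difference between females and males was 0.05 (SE 0.18) with a 95% interval from -0.34 to 0.43. The sexes also differed in the GC trend, which ran from 0.0069 to 0.56 in male and from -0.50 to 0.15 in female libraries. Taking the trend out turned the female-to-male log2 difference of Rab5c from -0.10 to 0.13 and that of Rin1 from -0.30 to 0.18. That of Rinl went from 0.05 to 0.28 (SE 0.17).

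Whether the CKD effect differed by sex was tested by the interaction of sex and treatment, female effect minus male effect. By edgeR 0 of 7 genes passed, as did 0% of all genes, and 0 of 7 had an unadjusted p under 0.05, against 1.68% of all genes. DESeq2 and limma-voom called 0 of 7 too, and 0% of all genes. In limma-voom Rinl was the 1 gene of 7 with an unadjusted p under 0.05, against 5.48% of all genes. For Rinl the difference was -0.47 (SE 0.36, 95% interval -1.23 to 0.30). It was -0.85 in limma-voom, -0.90 with title number 6 only, -0.77 without male CKD 4 and female control 2, and -0.31 without female control 1. For Rin1 it was -0.69 (SE 0.61), with an effect of 0.27 in males and -0.42 in females. For Rab5c it was -0.01 (SE 0.22), with effects of -0.21 and -0.23. With 4 mice in each group these intervals are wide, and effects of the same size in both sexes and effects that differ both lie inside that of Rinl.

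Other genes of the Rab5 pathway were drawn from a list of 58, and 56 of them passed the filter on low counts. For CKD against control 0 of 56 passed in edgeR, in DESeq2 and in limma-voom, where 0.0854%, 2.43% and 1.21% of all genes passed. At an unadjusted p under 0.05 in edgeR there were 1 higher and 2 lower genes of 56, a smaller share than the 15.4% of all genes. DESeq2 had 2 higher and 2 lower, where 15.9% of all genes passed. In limma-voom there were 4 higher and 4 lower, beside 19.3% of all genes. The differences from these shares were not tested. The median log2 fold change of the list was 0.014, beside 0.0017 for all genes, and single values ran from -0.39 to 0.31.

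Of the 6 other genes for VPS9-domain proteins, which share the exchange domain of the RIN family, 2 had positive and 4 negative fold changes. Vps9d1 had -0.33 (SE 0.22) and Ankrd27, which acts on Rab21, -0.14 (SE 0.12). The GTPase-activating Usp6nl and Sgsm3, which switch Rab5 off, had 0.06 (SE 0.12) and -0.18 (SE 0.19). The lowest fold change of these 8 genes was thus that of Vps9d1.

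The 21 effector genes include Eea1, which tethers early endosomes, the Rabaptin gene Rabep1, and the lipid kinase Pik3c3. Of them 14 had positive and 7 negative fold changes. Ocrl, a phosphatase for membrane lipids, had 0.31 (SE 0.14, unadjusted p = 0.0360, edgeR) and Vps45, needed for endosome fusion, -0.26 (SE 0.13). Eea1 itself went from 69.0 ± 15.2 CPM in controls to 83.4 ± 17.9 CPM in CKD mice (SD, n = 8 each), with a log2 fold change of 0.26 (SE 0.16).

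Of the 6 other Rabs of the Rab5 subfamily, Rab31 had -0.21 (SE 0.11) and Rab21 -0.15 (SE 0.09). Rab22a, reported as a second substrate of Rinl, had 82.3 ± 8.17 CPM in controls and 80.8 ± 5.58 CPM in CKD mice (SD, n = 8 each), a log2 fold change of -0.03 (SE 0.08). Of the 9 other endosomal Rabs, Rab4a of fast recycling had 0.24 (SE 0.11) and Rab7 of late endosomes 0.17 (SE 0.10). Over these 15 Rab genes the log2 fold changes ran from -0.28 for Rab17 to 0.24 for Rab20.

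Of 14 reported partners of RIN proteins 12 were tested. Bin1, a membrane-bending protein that binds RIN3 and shapes cardiac T-tubules, had 7.284 ± 1.401 CPM in controls and 5.55 ± 1.05 CPM in CKD mice (SD, n = 8 each). Its log2 difference was -0.39, with an SE of 0.14 and an adjusted p = 0.192 in edgeR. Rras, a small GTPase that binds RIN2, had -0.19 (SE 0.09, adjusted p = 0.314, edgeR). Musk and Epha8, receptors linked to Rinl in other tissues, did not pass the filter, with means of at most 0.154 and 0.0337 CPM in either arm.

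Between the sexes 0 of the 56 pathway genes passed in edgeR, with 13 higher in females and 9 lower at an unadjusted p under 0.05; DESeq2 called 6 and limma-voom 9. Of all genes 25.2% had an unadjusted p under 0.05 in edgeR, a smaller share than that of the pathway genes, and this difference was not tested. DESeq2 called 9.77% of all genes and limma-voom 16.6%, so the pathway counts called by DESeq2 and limma-voom are near those shares. Vps9d1 had the lowest p, with a log2 difference of -0.87 (SE 0.22, adjusted p = 0.0632, edgeR) between females and males. Inpp5b, a lipid phosphatase, had 0.32 (SE 0.09, adjusted p = 0.0713, edgeR). For the interaction 0 of 56 passed in edgeR, DESeq2 and limma-voom, with 0 at an unadjusted p under 0.05 in edgeR and DESeq2 and 4 in limma-voom. The shares of all genes were 1.68%, 1.55% and 5.48%.

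**Figure D4:**
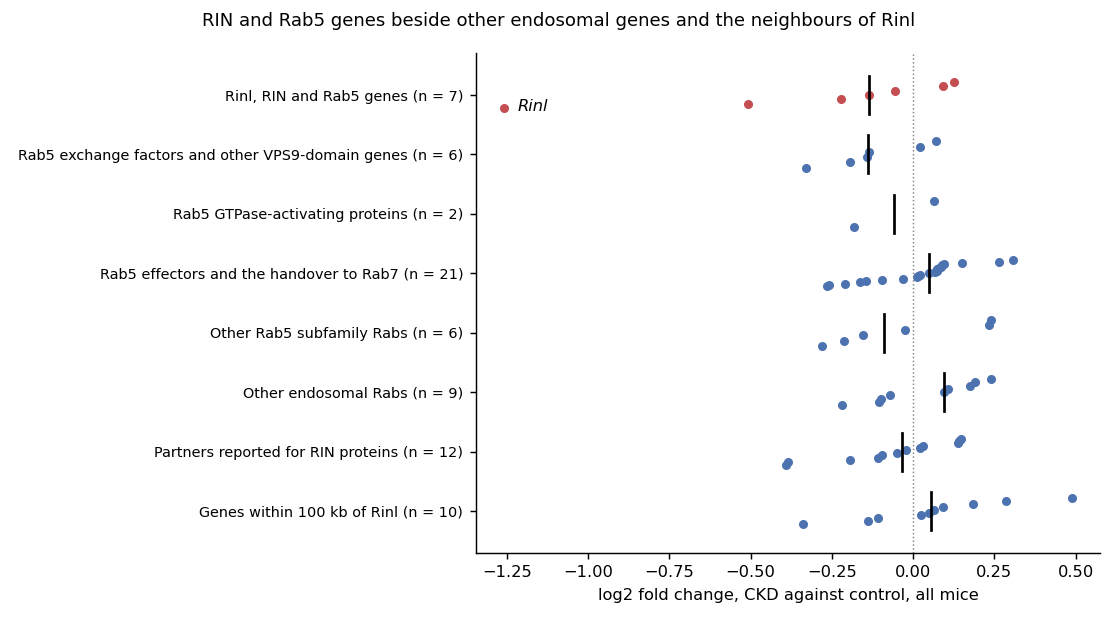
Log2 fold change of CKD against control over all mice, 1 point per gene, for the 7 RIN and Rab5 genes (red), 6 groups of other endosomal genes and the tested genes within 100 kb of Rinl; black lines are medians. Rinl, chosen for its fold change, lies at -1.26, and the points of the other pathway genes lie between -0.39 and 0.31.

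The neighbours of Rinl on chromosome 7 had fold changes closer to 0 than that of Rinl, which was chosen for its low value. Within 100 kb lie 16 annotated genes, of which 10 were tested. In edgeR 0 of the 10 passed for CKD against control, as did only 0.0854% of all genes, so nothing is read from the 0. Their log2 fold changes ran from -0.34 to 0.49 with a median of 0.056, and the lowest unadjusted p was 0.0365. Sirt2, a deacetylase gene on the same strand that ends 308 bases before Rinl starts, had 78.0 ± 6.83 CPM in controls and 81.5 ± 10.5 CPM in CKD mice (SD, n = 8 each), a log2 fold change of 0.07 (SE 0.09). Hnrnpl, an RNA-binding protein gene 9578 bases beyond the end of Rinl, had 0.18 (SE 0.12). No exon of another gene overlaps those of Rinl.

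Shared sequence touched Rab5a and Rab5b more than the other 5 genes. Of the 25-base words of Rinl transcripts 0.601% also occur in other genes, on either strand, and of Rin3 0.220%, Rin2 1.25%, Rin1 1.64% and Rab5c 0. For Rab5b the share was 12.8%, nearly all of it with the processed pseudogene Gm13991, whose counts came to 5.59% to 13.5% of those of Rab5b. Gm13991 had a log2 fold change of 0.05 (SE 0.22), and adding its counts to Rab5b, an alternative chosen after seeing the data, left the fold change of Rab5b at 0.09. For Rab5a the share was 7.54%, and exons of Pp2d1 on the other strand overlap 4.19% of its exon bases. No source used here says if reads were counted by strand, and Pp2d1 had at most 8 counts per library.

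Markers of the cell types in the tissue were set beside Rinl. The 6 fibroblast markers were all negative with CKD (median log2 fold change -0.44; summed level 786 to 1041 CPM in controls and 167 to 1078 CPM in CKD mice), as were the 6 endothelial markers (median -0.42; 583 to 811 CPM and 221 to 752 CPM). The 6 macrophage markers summed to 120.3 to 154 CPM in controls and 57.6 to 172 CPM in CKD mice (median -0.11, 4 of 6 negative). The 4 B cell markers were all negative (median -0.67; 2.46 to 7.62 CPM in controls and 1.71 to 4.89 CPM in CKD mice). Of 6 T cell markers 2 passed the filter, and the sums of all 6 were 4.59 to 7.15 CPM and 2.80 to 6.15 CPM; Cd3e and Cd8a were at 0 in some library. Of these lists 0 markers passed in edgeR for CKD against control, where 0.0854% of all genes did. The control and CKD ranges of each sum overlapped, and the part of cell make-up in the level of Rinl was not tested.

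Within groups, Rinl moved with some of these sums. With group means removed, its r over 16 libraries was 0.67 with the endothelial sum, 0.65 with the fibroblast sum and 0.62 with the macrophage sum. Without male CKD 4 and female control 2, the libraries whose Rinl deviation lay farthest from the median deviation, these were 0.54, 0.41 and 0.37. Over 16 libraries the sums of the other lists had a lower r, and without those libraries some came as high. The mesothelial sum had 0.57, and 0.56 without those libraries, and the smooth muscle sum 0.20 and 0.62. For the pericyte sum r was 0.44 and -0.03, and the neutrophil sum had the lowest r over 16 libraries, -0.34. With the T cell sum r was -0.25 and with the B cell sum 0.04. Male CKD 4 was the lowest library for Rinl, Rin2 and Rab5c and for the fibroblast sum. Leaving that library out gave Rinl a log2 fold change of -1.19 (SE 0.18).

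The genes with the pattern most like that of Rinl were sought among 11369 protein-coding genes by Pearson's r of log2 CPM over 16 libraries. With group means removed the highest were Dcp1b of mRNA decapping (r = 0.88, rho = 0.89), Clec3b, which encodes tetranectin (0.86, 0.85), Ptpn6, a phosphatase of blood cells (0.85, 0.80), Cmtm3 (0.84, 0.83) and Rcn3, a protein of the endoplasmic reticulum (0.83, 0.76). Without male CKD 4 and female control 2 their r ran from 0.73 to 0.82. As measured, with the difference between controls and CKD mice left in, the highest were Rcn3 (0.89, 0.91), Rflnb of filamin binding (0.88, 0.89), Sh3tc2, a protein of endosome recycling (0.88, 0.87), the matrix gene Sparc (0.87, 0.89) and the phosphatase gene Ubash3b (0.87, 0.83). Rcn3 was on both lists, and the libraries share depth and composition, so these values are descriptions.

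Among the 7 genes, Rab5c and Rin2 were the ones most like Rinl within groups, with r of 0.64 (rho = 0.63) and 0.53 (rho = 0.52) over 16 libraries. Rin3 had 0.36, Rin1 0.35, Rab5a -0.27 and Rab5b -0.13. Without male CKD 4 and female control 2, r was 0.51 for Rab5c, 0.55 for Rin2, 0.0126 for Rin3 and -0.04 for Rin1. For Rab5a and Rab5b it was then -0.54 and -0.42, farther from 0 than over all 16.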

How the data were processed

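Total RNA of 16 ventricle samples (4 male control, 4 male CKD, 4 female control, 4 female CKD) was sequenced as paired-end reads. The authors deposited raw counts per gene, in whole numbers. Per the submitters' processing notes, FastQC, MultiQC, STAR 2.6.1d, featureCounts of Subread 1.6.3 and DESeq2 1.30.1 were used with mm10. No source used here names the annotation release, or says how strand and multi-mapping reads were handled. Of 33399 gene IDs 33367 matched GENCODE M21 (GRCm38), which gave symbols, positions and lengths.

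Groups came from the sample titles, and replicate numbers only name a sample. No label says more about how samples of a group were taken, so p-values measure the spread between these samples. Genes were kept by filterByExpr (minimum count 10, total 15), which left 16400, and scaled by TMM. The main test was edgeR 4.0.16 (R 4.3.3), glmQLFit and glmQLFTest, on all 16 libraries, with sex as a covariate or the 4 groups as levels, two-sided, Benjamini-Hochberg over all genes, threshold 0.05. The code was tested on simulated data. CPM use TMM library sizes; correlations use log2 CPM with a prior count of 2.

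The genes, lists and rules were chosen with earlier results of these data known. Named by rule were the 7 genes, pathway genes past the threshold and the 2 with the lowest p in each group of the list, the nearest tested neighbours of Rinl, and the 5 genes most like it on each scale (protein-coding, mean log2 CPM of at least 1). Eea1, Rabep1, Pik3c3, Rab22a, Rab17, Rab20, Musk and Epha8 were named after their values were seen. Fold changes in the text cover only some of the cell type lists, and correlations with Rinl were made for all of them. Lists for pericytes, smooth muscle, neutrophils, platelets, red cells, Schwann cells, adipocytes, lymphatic vessels and mesothelium had 0 markers past the threshold for CKD. Of all genes 0.0854% passed it. Alternatives were DESeq2 1.42.0, limma-voom (limma 3.58.1) weighted by sample quality, scaling by RLE, by upper quartiles or after removal of the mitochondrial genome's genes, the title number as a factor, no filter, a filter of 1 CPM in at least 8 libraries, only libraries numbered 6, 1 surrogate variable (sva 3.50.0), removal of GC trends, no sex term, leaving out male CKD 4 and female control 2 together, and leaving out each library.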

Additional observations from a re-analysis of the deposited data

Results flagged for a closer look

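Within the groups of 4, a library was marked when its gap to the nearest other was more than 0.829 of the group's range (Dixon's criterion); of 28 groups tested 3 had one, and chance marks about 1 in 20. Rinl had 1.01 CPM in female CKD 2, below the other 3 at 1.26 to 1.29 CPM, a group with a narrow range. Rab5b had 108.4 CPM in male CKD 4, below the other 3 at 142.6 to 148 CPM. Rab5c had 59.6 CPM in female control 1, above the other 3 at 46.6 to 47.6 CPM; the same library had the highest Rinl value, 4.503 CPM.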

How the results depend on the processing

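The log2 fold change of Rinl with CKD was negative in 29 of 29 alternatives, from -1.37 to -1.14, and from -1.37 to -1.17 without 1 library; Rinl was chosen on this contrast in these libraries, so this says nothing of its stability. Among the 10 libraries with title number 6, with fewer samples, it was -1.19, and 0 of the 7 genes were called there. The number of pathway genes called for CKD was 0 in every alternative run, and so were the numbers of the 7 genes called for sex and for the interaction.

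The number of all genes called for CKD depended on the method: 14 in edgeR against 398 with DESeq2, 199 with limma-voom, 234 with the title number as a factor, 53 with no filter, 23 with 1 surrogate variable, 22 with GC trends removed, 22 without male CKD 4 and female control 2, and 8 with title number 6 only. Without 1 library it ran from 6 to 43, the highest being those without female CKD 4 (43) and male control 2 (37). For sex it was 28 in edgeR, 1446 with DESeq2, 2717 with limma-voom, 616 with no filter, 48 with upper-quartile scaling, 16 with title number 6 only, 15 with the title number as a factor, 12 with GC trends removed and 7 with 1 surrogate variable. Without 1 library it ran from 8 to 1461, the highest without female control 3 and the next, 245, without male control 2. For the interaction it was 0 in every alternative run.

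Some differences between the sexes and interactions changed sign, and the cause was not tested. The sex difference of Rin2 was -0.0052 with limma-voom and -0.060 without both libraries named above. For Rab5a it was -0.0060 with the title number as a factor, -0.0037 with title number 6 only and -0.014 with GC trends removed. With 1 surrogate variable it was 0.37 for Rin1 and 0.58 for Rin3, against -0.30 and -0.29 in the main test, and with GC trends removed 0.18 for Rin1 and 0.13 for Rab5c. The CKD fold change of Rin1 changed sign in 10 of 29 alternatives, from -0.21 to 0.35. That of Rin3 was -0.19 with limma-voom, -0.12 with title number 6 only and -0.095 with 1 surrogate variable. The interaction of Rin2 was -0.11 with title number 6 only, and that of Rab5c 0.049 with GC trends removed. The sex difference of Rinl was 0.049 in the main test. It was 0.28 with GC trends removed, 0.21 with title number 6 only and 0.20 with 1 surrogate variable. Leaving out each library gave a range from -0.056 to 0.12 for it and from -0.16 to 0.14 for the interaction of Rab5c. The interaction of Rin3 then ran from -0.74 to 0.31, and its highest value was the one without female control 4. No paired analysis was possible because the labels give no replicate numbers shared between groups. Depth limits Rinl and Rin1, with 7 to 53 counts per library, more than the other genes.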
